A study of Mus musculus with 7 samples.

Results

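A set of 10 genes of triglyceride turnover were followed in the kidney: Mogat1 and Mogat2, Dgat1 and Dgat2, Gpam, Agpat2 and Lpin1, Plin2, Mgll and Pnpla2. They were chosen by their place in the making, storage and breakdown of triglyceride and with the group difference of this same comparison known, so their differences are given as a description with no test. These 10 genes are among the 45706 in the deposited tables, and all 10 passed the filter on low counts that left 15399 genes for testing. The libraries came from 7 kidneys, each of a male Slc7a9-/- mouse at 6 months of age. The gene Slc7a9 encodes a subunit of a cystine transporter of the proximal tubule, and its loss models the stone disease cystinuria. The untreated group held 3 mice, and the ergothioneine group held 4 mice given L-ergothioneine, a dietary antioxidant, at 16 mg/kg/day in the drinking water. Every mouse in both groups lacked Slc7a9, so no value here compares the model with wild-type kidney. Mice are numbered in the labels, with no word on litter, cage or hour of collection, so the spread in the tests is that between these kidneys.

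Triglyceride is built by a pair of routes that meet at diacylglycerol. In the monoacylglycerol route, Mogat1 and Mogat2 add a fatty acid to monoacylglycerol, and Mogat2 is best known from the absorption of dietary fat in the intestine. In the glycerol phosphate route, Gpam carries out the first acylation, Agpat2 the next, and Lpin1 removes the phosphate to give diacylglycerol. Dgat1 and Dgat2 add the last fatty acid, Plin2 coats the droplet in which the fat is stored, Pnpla2 (ATGL) starts its breakdown and Mgll ends it by splitting monoacylglycerol. The proximal tubule burns fatty acids for energy and can store them in such droplets.

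Facts of the libraries that touch the values were as follows. Totals ran from 14843899 to 19791575 expected counts, and levels are given as CPM, counts scaled by library size with TMM factors. Markers of the convoluted proximal tubule summed to between 16300 and 19600 CPM in the untreated and between 16400 and 17900 CPM in the treated kidneys, so the labelled tissue carried its defining transcripts. Untreated libraries 1 and 2 stood apart, with 12.2% and 16.2% of TPM (transcript levels divided by length and scaled to a fixed sum) in short non-coding RNA against 37.5% to 48.7% in the other 5 libraries. The median tested gene accordingly fell by 0.31 on the log2(TPM + 1) scale of the deposited values, so levels between genes are given below as TPM rescaled without those RNAs. In whole kidney, fewer cells of a type and less RNA per cell cannot be told apart.

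Mogat2 was the member with the largest difference. Its level was 14.6, 12.9 and 16.0 CPM in the untreated kidneys and 5.11, 5.06, 4.15 and 5.62 CPM in the treated ones. Every treated kidney lay below every untreated kidney, with a gap between 5.62 and 12.9 CPM. The means were 14.5 ± 1.55 CPM (SD, n = 3) and 4.98 ± 0.611 CPM (SD, n = 4), a log2 fold change of -1.54 ± 0.13 (SE), which puts the treated level at 0.344 of the untreated one. Mogat2 (ENSMUSG00000052396) lies on the minus strand of chromosome 7 from 99219084 to 99238619 (GRCm38), with 1 protein-coding transcript model and 1 non-coding one. The raw material was small, with 257, 193 and 250 counts untreated and 90, 100, 71 and 103 counts treated. Counting error for these numbers ran from 6.24% of the value, at 257 counts untreated, to 11.9%, at 71 counts treated. Kidneys of the same group varied by 10.7% untreated and 12.3% treated. Ordered from the most negative fold change, Mogat2 stood at place 37 of 15399 tested genes, and at place 25 of the 14414 genes whose mean log2 CPM was 0 or more. An antisense gene, Gm45012, overlaps it on the other strand and was not analysed here, and the strand setting of the counting is not given in the sources used here.

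Mogat1 (chromosome 1, 78510991 to 78538173, plus strand), the other enzyme of the monoacylglycerol route, was at 72.9, 82.1 and 79.6 CPM untreated and 59.5, 58.8, 73.5 and 72.5 CPM treated. The groups overlapped, because treated kidney 3 lay above untreated kidney 1, while treated kidneys 1 and 2 were the lowest of the 7. Its means of 78.2 ± 4.76 and 66.1 ± 7.99 CPM gave a log2 fold change of -0.24 ± 0.08. The start of Mogat1 overlaps the gene BC035947 on the opposite strand, which had between 1831 and 2571 counts per library. Set against one another within each library, Mogat2 made up 9.03%, 8.76% and 9.59% of the summed Mogat1 and Mogat2 TPM in the untreated kidneys. In the treated kidneys that share was 4.18%, 4.13%, 2.75% and 3.69%. The mean share was thus 9.13 ± 0.419% without and 3.69 ± 0.659% with ergothioneine, and Mogat1 supplied most transcripts of the pair in every library.

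**Figure D1:**
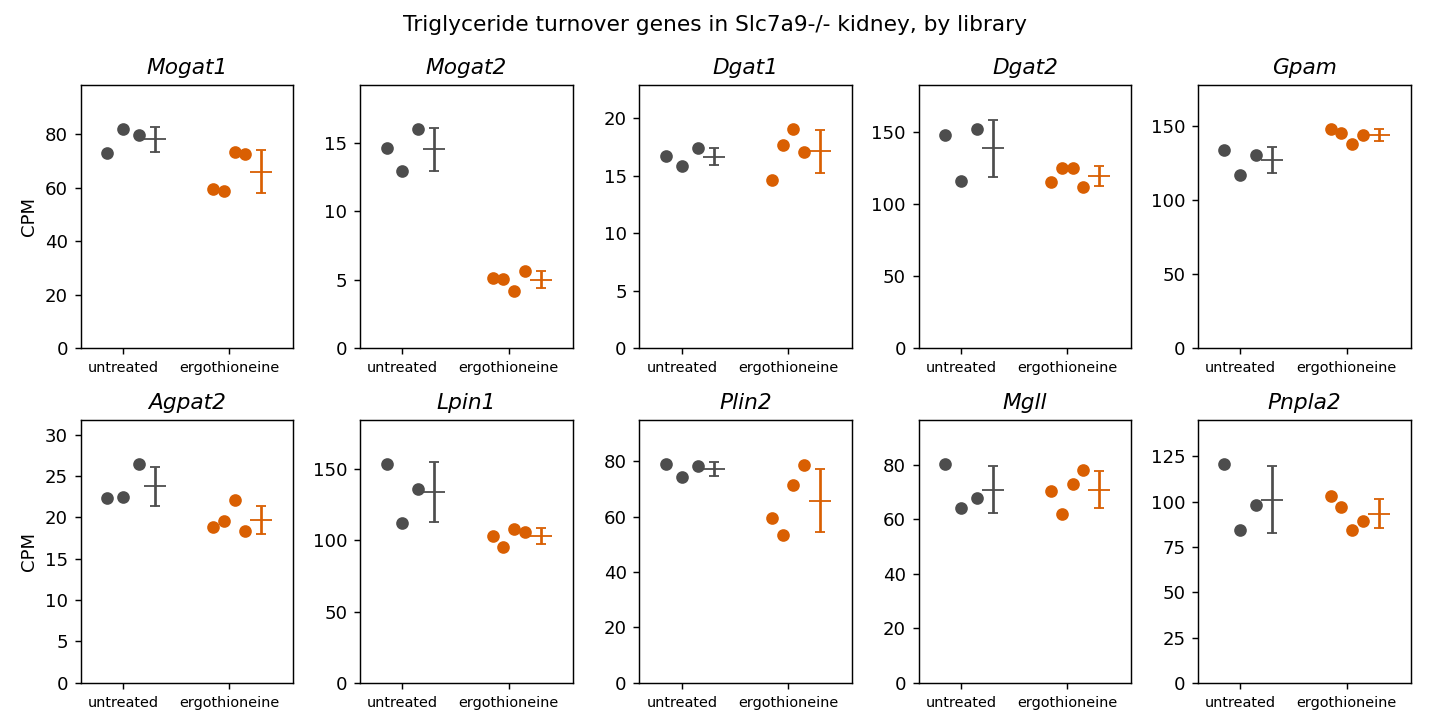
Level of each of the 10 genes (CPM, 1 panel per gene, each axis starting at 0) in the 3 untreated and 4 ergothioneine kidneys, with points for single kidneys and a bar for the mean and its SD. Mogat2 falls from between 12.9 and 16.0 CPM to between 4.15 and 5.62 CPM, while the groups overlap for Mogat1, Dgat1, Dgat2, Plin2, Mgll and Pnpla2.

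Dgat1 and Dgat2, which close the synthesis, are unrelated in sequence family but act on the same substrate. Dgat2 (chromosome 7, 99153658 to 99182719, minus strand) was at 148, 116 and 152 CPM untreated and 115, 125, 125 and 112 CPM treated. The groups overlapped only because untreated kidney 2, at 116 CPM, sat among the treated ones. Its means were 139 ± 19.4 and 119 ± 6.68 CPM, with a log2 fold change of -0.22 ± 0.08. Dgat1 (chromosome 15, 76502015 to 76511953, minus strand) was at 16.7, 15.9 and 17.4 CPM untreated and 14.6, 17.7, 19.1 and 17.1 CPM treated. Here the treated kidneys enclosed the untreated ones, holding both the lowest and the highest value, and the log2 fold change was 0.04 ± 0.10. Dgat2 accounted for 81.3% to 85.3% of the summed Dgat1 and Dgat2 TPM in untreated and 79.1% to 83.9% in treated kidneys, ranges that overlapped. The ratio of Mogat2 to Dgat1 counts ran from 0.811 to 0.923 untreated and from 0.217 to 0.350 treated, and that of Mogat2 to Dgat2 counts from 0.0985 to 0.111 and from 0.0333 to 0.0503.

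In the glycerol phosphate route the 3 members differed in sign. Lpin1 (chromosome 12, 16535669 to 16610966, minus strand) was at 154, 112 and 136 CPM untreated and 103, 95.4, 108 and 106 CPM treated. All treated kidneys lay below all untreated ones, though untreated kidney 2 at 112 CPM came close to treated kidney 3 at 108 CPM. The means were 134 ± 21.2 and 103 ± 5.58 CPM, a log2 fold change of -0.38 ± 0.09. Most of the spread lay in the untreated kidneys, whose coefficient of variation was 15.9% against 5.42% in the treated ones. Agpat2 (chromosome 2, 26593057 to 26604417, minus strand) was at 22.3, 22.5 and 26.5 CPM untreated and 18.8, 19.6, 22.1 and 18.3 CPM treated. The groups did not overlap, but only 22.1 against 22.3 CPM kept them apart, and the log2 fold change was -0.27 ± 0.09. Its 3′ end overlaps that of Egfl7 on the opposite strand, which had between 369 and 499 counts per library.

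Gpam (chromosome 19, 55067268 to 55127238, minus strand), the mitochondrial enzyme of the first step, was the member with the largest positive difference. It was at 134, 117 and 130 CPM untreated and 148, 145, 138 and 144 CPM treated. Every treated kidney lay above every untreated one, with means of 127 ± 8.61 and 144 ± 4.38 CPM and a log2 fold change of 0.18 ± 0.06. On log2(TPM + 1) as deposited the sign turned to -0.18, below 0 with the median gene of that scale, and after rescaling without short non-coding RNA it was 0.19. In the rescaled TPM the groups overlapped, with untreated kidney 3 at 61.6 and treated kidney 3 at 59.9 TPM. Because Lpin1 and Gpam differed in opposite directions, their ratio of counts separated the groups more widely than either gene, from 0.953 to 1.15 untreated and from 0.66 to 0.788 treated. The ratio of Agpat2 to Gpam counts likewise ran from 0.167 to 0.205 and from 0.127 to 0.161.

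Plin2 (chromosome 4, 86648386 to 86670060, minus strand), the droplet coat protein of most tissues, was at 79.1, 74.4 and 78.2 CPM in the untreated kidneys. Treated kidneys 1 and 2 were lower at 59.6 and 53.5 CPM, whereas treated kidneys 3 and 4 were at 71.3 and 78.6 CPM and reached the untreated range. The log2 fold change was -0.23 ± 0.12, and the coefficient of variation was 3.19% untreated and 17.2% treated. Treated kidneys 1 and 2 were also the lowest of the 7 for Mogat1.

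The lipases showed no separation of the groups. Pnpla2 (chromosome 7, 141455198 to 141460743, plus strand) was at 121, 84.4 and 97.9 CPM untreated and 103, 96.8, 84.4 and 89.3 CPM treated. The untreated kidneys alone spread from 84.4 to 121 CPM, as wide as all 7 together, and the log2 fold change was -0.11 ± 0.12. Mgll (chromosome 6, 88724412 to 88828360, plus strand) was at 80.5, 64.1 and 68.0 CPM untreated and 70.5, 61.9, 72.9 and 78.1 CPM treated, with means of 70.8 ± 8.58 and 70.9 ± 6.78 CPM. For both genes the standard errors, 0.12 and 0.09 log2 units, bound how small a difference these kidneys could show. The ratio of Pnpla2 to Mgll counts ran from 1.32 to 1.5 untreated and from 1.14 to 1.57 treated. Among the untreated kidneys, number 2 was the lowest for 8 of the 10 genes, Mogat2 included, but the highest for Mogat1 and between the other two for Agpat2. Number 1 was the highest for 5 genes (Gpam, Lpin1, Plin2, Mgll and Pnpla2) and number 3 for 4 (Mogat2, Dgat1, Dgat2 and Agpat2).

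Counted together, 2 of the 10 genes, Mogat2 and Lpin1, had an adjusted p under 0.05 in edgeR's quasi-likelihood fit across all genes, where 7.16% of tested genes passed. Both were lower with treatment, a direction in which 3.57% of tested genes passed, and 0 of the 10 passed in the higher direction, in which 3.58% did. Groups did not overlap for 4 members, against 18.6% of tested genes. Of these, 3 were lower (Mogat2, Lpin1 and Agpat2) and 1 was higher (Gpam), where the shares over all tested genes were 9.11% and 9.46%. In TPM rescaled without short non-coding RNA, only Mogat2 of these 4 kept its groups apart. Since this same comparison was in view when the genes were chosen, nothing is read from these counts. The fold change was negative for 8 of the 10 genes, and its median was -0.23 against -0.0031 over all tested genes. On log2(TPM + 1) as deposited it was negative for all 10, Gpam and Dgat1 included, relative to a median gene that itself lay at -0.31. Mogat2 alone among the 10 changed by more than 2-fold, as did 272 of the 15399.

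**Figure D2:**
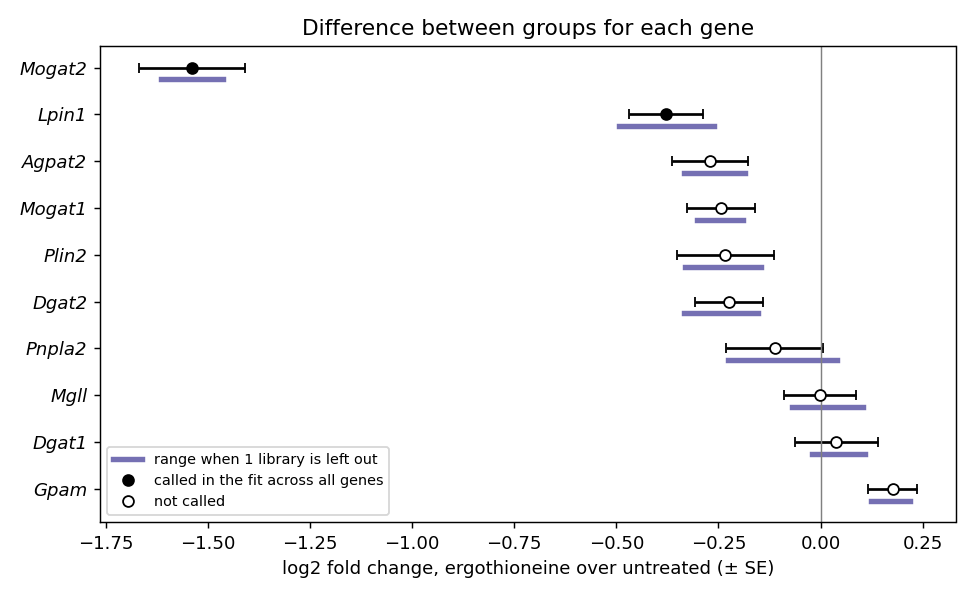
Log2 fold change of each gene, ergothioneine over untreated, as a point (filled where called, open where not) with its standard error, over a bar for the range when 1 library is left out. Mogat2 at -1.54 stands far to the left, Lpin1 follows at -0.38, and Gpam at 0.18 lies farthest to the right.

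These differences did not depend equally on single kidneys. With each library left out in turn, Mogat2 stayed between -1.61 and -1.46 and remained called in all 7 fits. Mogat2 was chosen with this difference known, so these calls are a description and no test of it. Lpin1 ranged from -0.49 to -0.26 and lost its call without untreated kidney 1 or 3 and without treated kidney 1, 2 or 4. Other genes gained one: Dgat2 without untreated kidney 2, Mogat1 and Agpat2 without treated kidney 3, and Plin2 without treated kidney 4. The labels give each sample a library name that ends in a number. These numbers fell into a high range (untreated 1 and 2, treated 1) and a low range (untreated 3, treated 2, 3 and 4). This split, called the index range here, was drawn from the numbers alone, and the labels do not say what they stand for. Within the high range the log2 ratio of treated to untreated CPM was -1.43 for Mogat2, -0.37 for Lpin1, -0.25 for Agpat2 and 0.24 for Gpam. Within the low range it was -1.70, -0.39, -0.41 and 0.13 in the same order. With the range as a covariate Lpin1 was no longer called, Agpat2 was, and Mogat2 remained called.

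In absolute terms the kidney carried these transcripts at very unlike levels, compared here in TPM rescaled without short non-coding RNA. In untreated kidneys Mogat1 was highest at 160 ± 10.8 TPM, followed by Dgat2 at 110 ± 22.2, Pnpla2 at 87.2 ± 14.9 and Plin2 at 80.2 ± 6.59 TPM. The ranges of Dgat2 and Pnpla2 overlapped, as did those of Pnpla2 and Plin2. Next came Gpam at 55.6 ± 6.87 TPM, then Lpin1 at 39.3 ± 7.45, Mgll at 35 ± 4.34 and Agpat2 at 34.1 ± 5.76 TPM, each overlapping its neighbour among these last 3. Dgat1 at 21.2 ± 1.3 TPM and Mogat2 at 16.1 ± 1.76 TPM closed the order without overlap. With ergothioneine Mogat1 again led at 138 ± 18.9 TPM and Dgat2 followed at 94.5 ± 7.10 TPM, with no overlap between them. Pnpla2 at 80.3 ± 6.82, Plin2 at 69.9 ± 12 and Gpam at 63.2 ± 2.75 TPM then overlapped in turn. Lpin1 moved behind Mgll, at 30.4 ± 1.56 against 34.9 ± 3.08 TPM with no overlap, and overlapped Agpat2 at 28.0 ± 1.85 TPM, which in turn overlapped Dgat1 at 22.3 ± 4.54 TPM. Mogat2 remained last at 5.21 ± 0.729 TPM, now well below Dgat1.

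**Figure D3:**
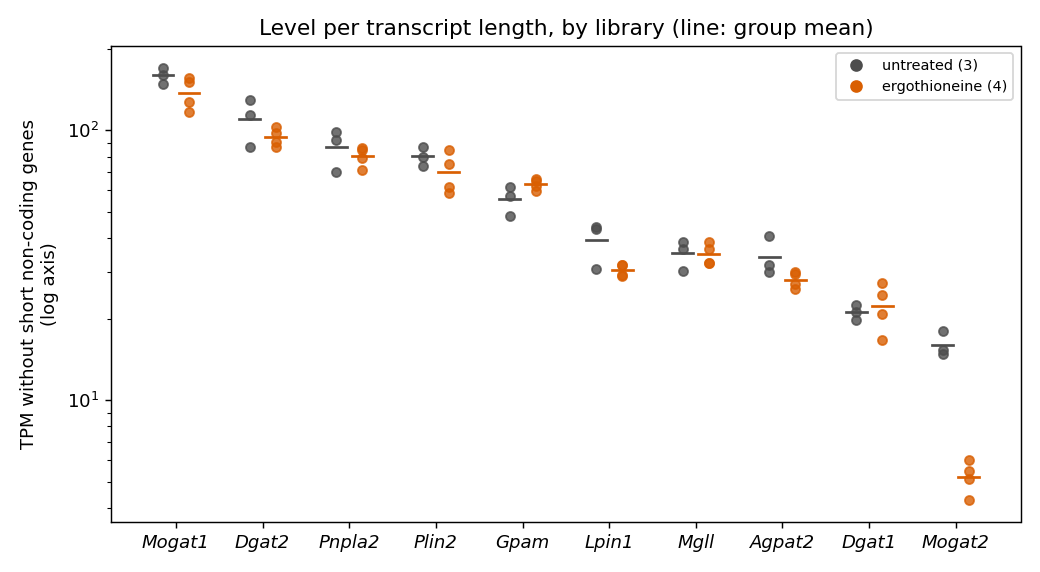
Level of the 10 genes in TPM rescaled without short non-coding RNA, on a log axis, for each of the 3 untreated and 4 treated kidneys, with a line for the group mean. Mogat1 leads in both groups at 160 and 138 TPM on average, and Mogat2 is last at 16.1 and 5.21 TPM.

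Mogat2 and Dgat2 lie near each other on chromosome 7, 36365 bp apart and on the same strand, and the region was read gene by gene. Uvrag, an autophagy factor 77943 bp away on the Dgat2 side, had a log2 fold change of 0.10 ± 0.07. On the other side Map6, a microtubule protein 28828 bp away, had 0.14 ± 0.29 at an untreated mean of 1.35 CPM. Neither passed the test (edgeR adjusted p = 0.477 and 0.845). Serpinh1, the collagen chaperone HSP47 at 106757 bp, fell by 0.39 ± 0.10 on the log2 scale (edgeR adjusted p = 0.0259), from 78.3 ± 3.67 to 59.6 ± 9.06 CPM. That call was lost without each single library other than treated kidney 3, with an adjusted p of up to 0.122. Dgat2, the gene between Uvrag and Mogat2, had the difference of -0.22 given above.

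The genes whose profile over the 7 kidneys was most like that of Mogat2 were sought among 12814 tested genes by the root mean square difference of log2 CPM centred on each gene's mean. Bhlhe41, a transcriptional repressor of the circadian clock, was the nearest at 0.193 log2 units. Its levels were 7.48, 8.64 and 10.5 CPM untreated and 3.18, 3.29, 2.98 and 2.73 CPM treated. Per3, a period gene of the clock, followed at 0.195, with 88.2, 76.9 and 94.1 CPM against 32.3, 36.0, 36.5 and 33.5 CPM. Both pairs of groups were separated, and as for Mogat2 untreated kidney 3 was the highest of the 7. Lonrf1, which encodes a RING finger protein, came next at 0.216, then Nudt19, a peroxisomal coenzyme A hydrolase of the kidney, at 0.231, and Nat8f7, an acetyltransferase-like gene with close family copies, at 0.232. Nudt19 was by far the most abundant of them, at 310 to 333 CPM untreated and 139 to 168 CPM treated, and the fold changes of these 3 were -1.26, -1.13 and -1.20 on the log2 scale. Since the likeness was measured over both groups, it rests mainly on the shared group difference, and no test is attached to it. Of 5 other clock genes read beside them, 2 rose and 2 fell in the fit across all genes. Per2 went from 83.8 ± 3.33 to 17.1 ± 3.10 CPM and Dbp from 126 ± 13.6 to 35.4 ± 7.83 CPM. Arntl went from 1.63 ± 0.515 to 11.6 ± 0.685 CPM and Npas2 from 1.64 ± 0.449 to 12.2 ± 1.64 CPM. Nr1d1, at 120 ± 17.9 and 97.8 ± 18.9 CPM with overlapping groups, did not pass (edgeR adjusted p = 0.445). The part of collection time in the level of Mogat2 was not tested, as no hour is given.

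**Figure D4:**
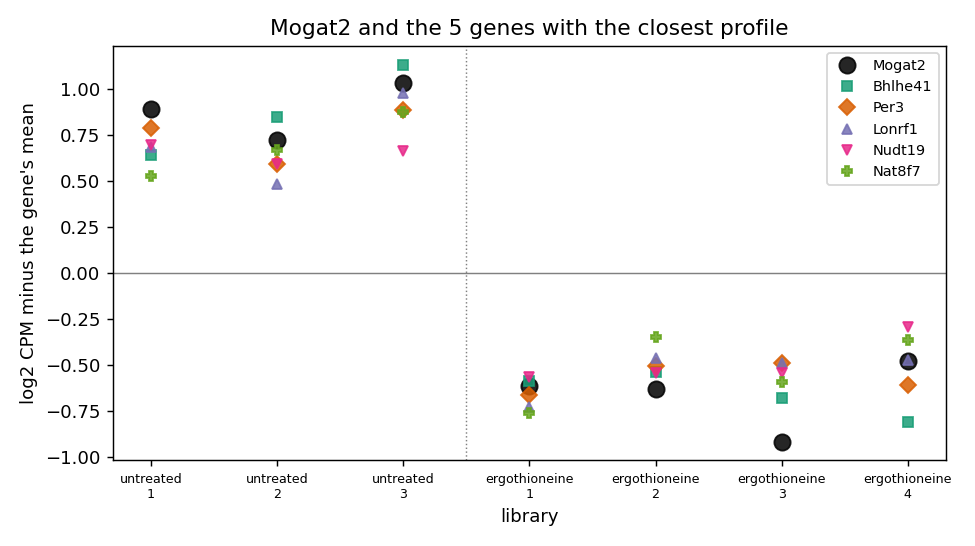
Centred log2 CPM of Mogat2 and of the 5 genes with the most similar profile, across the 3 untreated and 4 treated kidneys. The points of all 6 genes lie above 0 in every untreated kidney and below 0 in every treated kidney, with Mogat2 at 1.03 in untreated kidney 3 and -0.91 in treated kidney 3.

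Around the 10 genes, 81 others of triglyceride and fatty acid handling were read in 6 lists, and 78 could be tested. In the same fit 6 rose and 15 fell, 26.9% of those tested, with a median log2 fold change of -0.01. Over all tested genes 3.58% passed in the higher direction, 3.57% in the lower and 7.16% in either. The lists too were chosen with earlier results of these data known, so nothing is read from these counts. Calls of 9 of these 21 genes held with every library left out in turn (Gk, Ces1d, Ces1f, Plin1, Plin4, Cidea, Cidec, Fabp4 and Thrsp). The other 12 lost theirs in 2 to 6 of the 7 fits. Not all of the 9 held in other settings. Gk was not called on any TPM scale, Ces1f not on TPM as deposited, and Cidea not in DESeq2. On log2(TPM + 1) without a filter on counts, Ces1d, Plin4 and Fabp4 were not called either. Plin1, Cidec and Thrsp kept their calls in all of these. On log2(TPM + 1), with and without rescaling, 0 genes of the lists passed in the higher direction. All adjusted p values below are from edgeR's quasi-likelihood test.

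Among other acyltransferases and phosphatases of glycerolipid synthesis, 2 of 16 tested genes rose and 2 fell, with a median of 0.00. Gk, glycerol kinase, which supplies glycerol phosphate, fell from 1060 ± 36.3 to 868 ± 28.5 CPM (log2 fold change -0.28 ± 0.06, adjusted p = 0.00907). Gpd1, which makes glycerol phosphate from a glycolytic intermediate, fell from 453 ± 34.7 to 379 ± 14.8 CPM (-0.26 ± 0.06, adjusted p = 0.0189), a call lost without untreated kidney 1 or 3 or treated kidney 1 or 2. Plpp1, a lipid phosphatase of the cell surface, rose from 32.4 ± 2.04 to 39.4 ± 1.19 CPM (0.28 ± 0.07, adjusted p = 0.0192), not called without untreated kidney 1 or 2 or treated kidney 2 or 4. Soat1, which esterifies cholesterol, rose from 44.7 ± 2.01 to 53.4 ± 2.19 CPM (0.25 ± 0.06, adjusted p = 0.0222), not called without untreated kidney 2 or treated kidney 1, 2 or 4. The relatives of Gpam in the endoplasmic reticulum, Gpat3 and Gpat4, had log2 fold changes of 0.07 ± 0.12 and 0.04 ± 0.06 and did not pass. On log2(TPM + 1) as deposited Plpp1 and Soat1 turned to -0.080 and -0.037, and after rescaling they were at 0.29 and 0.32. Gpat2, with no more than 9 counts per library, went untested.

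Of 15 other lipases and lipase regulators, 3 fell and 0 rose, with a median of -0.06. The carboxylesterases Ces1d and Ces1f, which hydrolyse triglyceride and other esters, fell from 335 ± 12 to 256 ± 10.8 CPM and from 546 ± 25.7 to 423 ± 32.2 CPM. Their log2 fold changes were -0.39 ± 0.06 (adjusted p = 0.000386) and -0.37 ± 0.07 (adjusted p = 0.00239). The Ces1 genes are close copies of one another, so the split of reads among them is uncertain. Pnpla3, a relative of Pnpla2, fell from 1.85 ± 0.344 to 0.922 ± 0.116 CPM (-1.0 ± 0.28, adjusted p = 0.0365), on 35 counts or fewer per library. With each library left out in turn, it was called only without treated kidney 3. Abhd5, the activator of Pnpla2, was at 43.8 ± 1.87 and 43.4 ± 0.303 CPM, and G0s2, its inhibitor, at 15.1 ± 5.46 and 15.1 ± 4.42 CPM. Neither passed, and G0s2 carried a standard error of 0.33 log2 units.

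Other lipid droplet proteins held 5 genes that fell and 0 that rose of 14 tested, with a median of -0.18. Plin1, the droplet coat of adipocytes, fell from 3.92 ± 0.684 to 0.410 ± 0.197 CPM (log2 fold change -3.23 ± 0.32, adjusted p = 7.44e-06). Cidea, a droplet fusion protein of brown fat, was at 2.95, 2.55 and 3.14 CPM untreated and 0, 0.253, 0 and 0.164 CPM treated (adjusted p = 1.87e-05). Cidec, its white fat relative, fell from 4.82 ± 0.908 to 1.01 ± 0.587 CPM (-2.25 ± 0.32, adjusted p = 0.000638). Plin4 fell from 8.25 ± 0.709 to 3.82 ± 0.295 CPM (-1.11 ± 0.14, adjusted p = 0.000121). The remaining gene, Fitm1, named after its values were seen, fell from 21 ± 3.08 to 16.4 ± 1.38 CPM (-0.36 ± 0.11, adjusted p = 0.0487), a call lost without untreated kidney 1 or 2 or treated kidney 1, 2 or 3. Plin3 and Plin5, also droplet coats, had log2 fold changes of 0.06 ± 0.08 and -0.26 ± 0.18 and did not pass.

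Most tested markers of fat cells were lower in the treated kidneys. The droplet genes that fell were picked for falling, and Plin1, Cidea and Cidec among them are fat markers themselves. Mogat2 was chosen with its difference known, so nothing is read from the shared direction. Of 7 tested markers of brown adipocytes 6 fell, and their summed level went from between 28.4 and 42.7 CPM to between 3.52 and 5.56 CPM. Ucp1, the most abundant, went from 20.9 ± 6.22 to 0.835 ± 0.733 CPM, whereas Cox7a1 was at 2.99 ± 0.709 and 3.28 ± 0.325 CPM. Of 10 tested markers of white adipocytes 7 fell, but their sum overlapped, between 117 and 143 CPM untreated and 107 and 135 CPM treated. That sum was carried by Car3, at 57.1 ± 18.2 and 70.8 ± 8.67 CPM, and Lipe, at 27.7 ± 3.32 and 26.7 ± 4.31 CPM, which did not pass, while Adipoq fell from 1.85 ± 0.285 to 0.250 ± 0.152 CPM. No marker of either list was at 0 in all libraries. Of the 5 genes that the pathway lists share with these marker lists (Lipe, Plin1, Cidea, Cidec and Fabp4), 4 fell. The part of fat cells in the values of Mogat2 and of the droplet genes was not tested.

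Fatty acid uptake and activation held 3 genes that rose and 3 that fell of 15 tested, with a median of 0.08. All 3 that rose were acyl-CoA synthetases, which activate fatty acids before they can be esterified or burned. Acsl1 rose from 245 ± 31.8 to 315 ± 28.5 CPM (log2 fold change 0.36 ± 0.09, adjusted p = 0.0267), Acsl3 from 18.1 ± 2.54 to 24.7 ± 3.31 CPM (0.45 ± 0.12, adjusted p = 0.0273) and Acsl5 from 49.3 ± 2.84 to 58.2 ± 3.11 CPM (0.24 ± 0.07, adjusted p = 0.0376). On log2(TPM + 1) as deposited, Acsl5 turned to -0.12 and Acsl1 to -0.0035, and after rescaling they were at 0.24 and 0.37. The call was lost for Acsl1 without untreated kidney 2 or 3 or treated kidney 1, for Acsl3 without untreated kidney 2 or 3 or treated kidney 2 or 4, and for Acsl5 without untreated kidney 1 or 2 or treated kidney 2 or 4.

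Fabp4, a fatty acid carrier of fat cells and capillary endothelium, fell from 22.5 ± 2.71 to 14.1 ± 2.07 CPM (log2 fold change -0.67 ± 0.12, adjusted p = 0.00215). Slc27a2, the fatty acid transporter and acyl-CoA synthetase of the proximal tubule, was far more abundant and fell from 3980 ± 387 to 3250 ± 167 CPM (-0.29 ± 0.08, adjusted p = 0.0365). Gpihbp1, which holds lipoprotein lipase on capillaries, fell from 8.36 ± 1.72 to 5.72 ± 0.782 CPM (-0.55 ± 0.16, adjusted p = 0.0428) with groups that overlapped, and is named after its values were seen. Calls of both Slc27a2 and Gpihbp1 held only without untreated kidney 2 or treated kidney 3. Lpl itself was at 459 ± 107 and 485 ± 58.1 CPM and Cd36 at 492 ± 29.5 and 418 ± 39.6 CPM, and neither passed (adjusted p = 0.880 and 0.0619). Beside the lower Slc27a2, 2 of 5 markers of the straight proximal tubule fell, and the sum of the 5 went from between 3550 and 3720 CPM to between 2610 and 2820 CPM. That sum was carried by the 2 that fell, Atp11a (2370 ± 149 and 1770 ± 77.3 CPM) and Slc7a13 (921 ± 124 and 625 ± 51.0 CPM). Slc22a7, Cyp7b1 and Slc5a10 had groups that overlapped and did not pass, with log2 fold changes of 0.15, 0.06 and -0.22. Among markers of the collecting duct 3 of 6 were higher (Atp6v1g3, Slc4a1 and Slc26a4), with a sum of 254 to 283 CPM untreated against 295 to 367 CPM treated. The other markers, Aqp2, Aqp3 and Avpr2, had groups that overlapped and did not pass (adjusted p = 0.359, 0.830 and 0.418). For the thick ascending limb and distal tubule 1 of 5 markers was higher, with a sum of 4930 to 5280 against 5440 to 6250 CPM. It was Slc12a1, at 1300 ± 90.8 and 1650 ± 140 CPM. Calb1, at 280 ± 72.3 and 508 ± 56.3 CPM, had groups apart but did not pass (adjusted p = 0.0552). Umod, Slc12a3 and Pvalb had groups that overlapped and did not pass (adjusted p = 0.783, 0.701 and 0.5725). The part of nephron segments in these values was not tested.

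In fatty acid synthesis 1 of 12 tested genes rose and 1 fell, with a median of 0.02. Srebf1, a transcription factor of lipid synthesis, rose from 32.1 ± 1.02 to 51.7 ± 9.48 CPM (log2 fold change 0.69 ± 0.13, adjusted p = 0.0139), a call lost without any of the untreated kidneys. Thrsp, a lipogenic protein abundant in liver and fat, fell from 6.31 ± 0.814 to 2.00 ± 0.680 CPM (-1.65 ± 0.22, adjusted p = 0.000198). Fasn, fatty acid synthase, was at 253 ± 22.1 and 190 ± 28.4 CPM with groups that did not overlap, and did not pass (adjusted p = 0.0692). Scd2, a fatty acid desaturase, was at 81.8 ± 7.73 and 132 ± 24.7 CPM, also without overlap and not past the threshold (log2 fold change 0.69 ± 0.17, adjusted p = 0.0658). Both passed in DESeq2 (adjusted p = 0.00128 for Fasn and 5.85e-07 for Scd2) and in limma-voom (0.0276 and 0.00727). Other genes called above lost their call in these methods. Pnpla3 and Cidea were not called in DESeq2, which gave an adjusted p for 13591 of the 15399 genes. Fitm1, Gpihbp1 and Acsl5 were not called in limma-voom. Of 6 genes of lipoprotein assembly 1 fell, with a median of -0.12. It was Mttp, which loads triglyceride onto apolipoprotein B, at 47.8 ± 2.60 and 39.4 ± 2.01 CPM (-0.28 ± 0.07, adjusted p = 0.0182), not called without untreated kidney 1 or treated kidney 1. Apob was at 1350 ± 72.6 and 1300 ± 78 CPM and did not pass (adjusted p = 0.726).

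**Figure D5:**
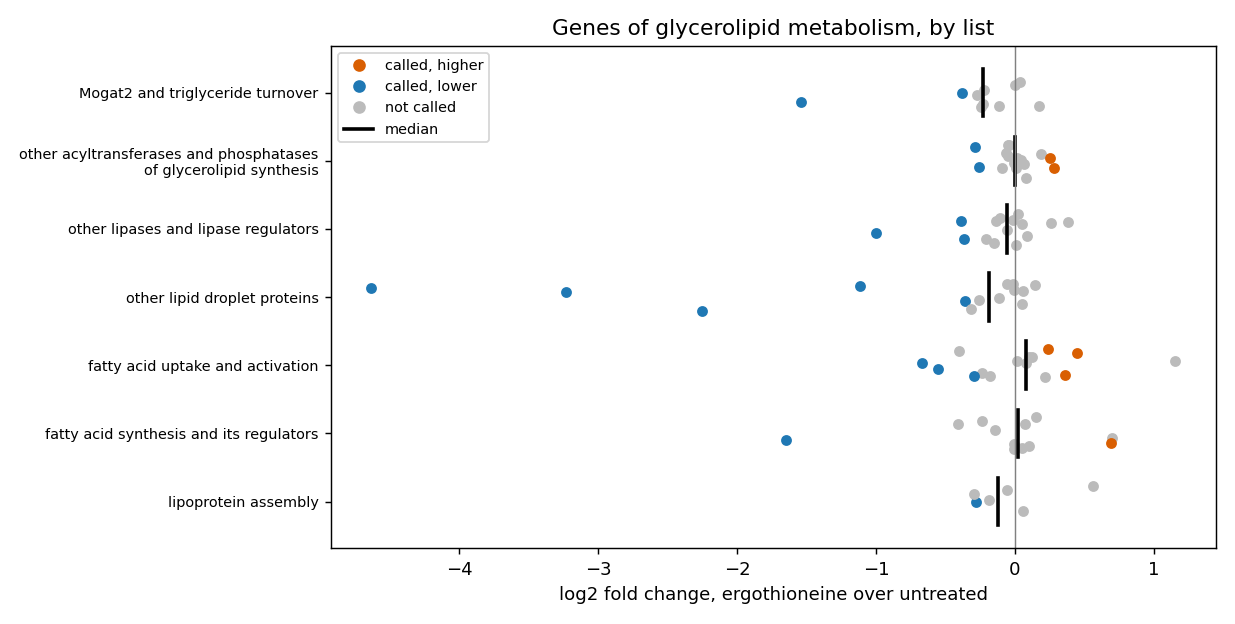
Log2 fold change of every tested gene in the group of 10 and in the 6 pathway lists, 1 row per list and 1 point per gene, coloured where called, and a bar for the list median. The droplet list reaches farthest left, with Cidea at -4.63 and Plin1 at -3.23, and the list of uptake and activation has called genes on both sides of 0.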

How the data were processed

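Total RNA of frozen kidney was sequenced after removal of ribosomal RNA. The authors deposited expected counts (reads shared between genes are split) and TPM for each gene and kidney. Per the submitters' processing notes the tools included STAR 2.7.10a, RSEM 1.3.1 and Salmon 1.10.1, on GRCm38, and neither annotation release nor strand setting is given in the sources used here. Expected counts were rounded and fitted in R 4.3.3 with edgeR 4.0.16 (filterByExpr, TMM, robust quasi-likelihood F test, Benjamini-Hochberg over 15399 genes, threshold 0.05), in a script tested on simulated data. The SE is the log2 fold change over the square root of F. Depth was 14843899 to 19791575 counts, and intervals of counting cover counting error only.

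Members and lists were chosen with earlier results of these data known. The text names all members, of each pathway list up to 4 called genes per direction with groups that do not overlap, 5 genes most like Mogat2 in profile (mean log2 CPM of at least 0, no predicted genes), its 2 nearest tested genes per side and the 2 most abundant markers per fat list. Other names (uncalled pathway genes, Adipoq, clock genes, nephron markers, Fitm1, Gpihbp1) were chosen after their values were seen. Short non-coding genes are those not protein-coding with a median transcript under 400 nt. Alternatives were DESeq2 1.42.0, limma 3.58.1 (voom, and log2 TPM with pseudocounts of 1 and 0.1), other scalings, filters and thresholds, libraries left out, a replicate block and the index range. Libraries of a group differed by 7.96 to 27.5 times sampling noise (chi-square per degree of freedom), so none was a copy.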

Additional observations from a re-analysis of the deposited data

How the results depend on the processing

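Over 19 alternatives Mogat2 kept its direction and its call, from -1.97 to -1.46 on the log2 scale. Its difference was known when it was chosen, so this describes the settings and is no test of Mogat2. Of 190 pairs of member and alternative, 154 kept direction and side of the threshold, 9 gained a call, 10 lost one (all Lpin1) and 17 changed sign, none of them called in either fit. Dgat1 was at -0.31 and Gpam at -0.18 on log2(TPM + 1), with and without a filter, and on log2(TPM + 0.1) at -0.33 and -0.19. Mgll was at 0.0057 with upper quartile scaling, 0.0081 without a filter on counts, 0.062 without untreated replicates 1 and 2 and 0.015 with the index range. Dgat1 was at -0.019 without those replicates and at -0.050 with the index range. With each library left out Mgll ran from -0.07 to 0.10, Pnpla2 from -0.23 to 0.040 and Dgat1 from -0.020 to 0.11. Called lower were 4 members at an adjusted p under 0.1 (with 1 higher) and 1 under 0.01. On log2(TPM + 1), log2(TPM + 0.1), log2(TPM + 1) without a filter and after removal of short non-coding genes 1 member was called lower. There, 0 pathway genes were called higher, and 9, 9, 4 and 8 lower. Members without overlap in those 4 settings were 0 higher, and 6, 6, 6 and 1 lower. Without untreated replicates 1 and 2, which leaves a lone untreated sample assumed to vary like the others, 3 pathway genes were called higher and 9 lower, and 5 members lay lower without overlap. With each library left out, 1 to 4 members were called lower, 1 to 7 pathway genes higher and 9 to 16 lower. Same-numbered kidneys did not deviate together (r = 0.01, -0.069 and 0.009). The labels do not say whether the numbers pair the mice, and these few values cannot settle it. The replicate block gave 4 members lower and 3 pathway genes higher. The cause of these shifts was not tested. Among the 10 genes counting error was largest for Mogat2, between 6.24% and 11.9%, and reached at most 6.48% for the others.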
